A study of Mus musculus with 18 samples.

Results

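The vault RNA gene Vaultrc5 and 3 genes for vault proteins, Mvp, Parp4 and Tep1, were followed in mouse lung fibroblasts that had or had not entered a collagen gel. Each gene was looked up by its symbol in the array annotation and read from its brightest probe set among those with exactly 1 symbol. Of the 4 named genes, 2 (Vaultrc5 and Mvp) had such a probe set, out of 19938 genes measured in this way. For Parp4 the annotation held 1 probe set that it shares with its neighbour Mphosph8, and Tep1 had no probe set under its symbol and was not analysed here. The set was chosen because Vaultrc5 is among the highest genes of the invading fraction, so the difference of Vaultrc5 between the fractions is given as a description without a test.

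Vaults are large hollow ribonucleoprotein particles of the cytoplasm. Their shell is built from many copies of the major vault protein (MVP), and inside it lie the poly(ADP-ribose) polymerase PARP4, the telomerase-associated protein TEP1 and short vault RNAs. Vault RNAs are made by RNA polymerase III, are bound by the La protein while they are new, and are found to a large extent outside the particle. What vaults do is not settled, although MVP has been linked to drug resistance, signalling and nuclear transport, and vault RNA to autophagy.

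RNA was extracted from the invading and the non-invading fraction of MLg 2908 cells, a single lung fibroblast line from newborn ddY mice of genotype WT whose sex was not determined, after 72 h (4 samples of each fraction) and 96 h (5 of each) on collagen. The treatment entry that all 18 samples share names TGFB1 beside the collagen assay, while no title names it, so whether TGFB1 was present is left undecided by the labels. The study's paper describes spontaneous invasion by these cells, and the key of its array heatmaps holds the label non-treated. The titles call the samples biological replicates of this 1 line. Signals were read on a microarray and are log2 values, in which a difference of 1 is a doubling of the signal. They hold no order between different probe sets. In such bulk samples fewer cells of a type and less RNA per cell cannot be told apart. Samples of 1 group correlated at 0.991 to 0.996 over all probe sets. As a coarse check of the label, which the lack of an order between probe sets limits, the mean signals of 12 fibroblast markers ran from 6.07 (Thy1) to 13.52, those of 9 epithelial markers from 4.05 to 6.68, of 6 endothelial markers from 4.76 to 6.62 and of 7 immune markers from 4.69 to 7.18.

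The sequence in front of Mvp is shown because Mvp is the member with a test of its own. It covers the 250 bases before the RefSeq start of the gene on the minus strand at chr7:127014595-127014844 (GRCm38.p6), and the capitals mark the single GC box, written here as the reverse complement CCGCCC of GGGCGG.
Mvp promoter: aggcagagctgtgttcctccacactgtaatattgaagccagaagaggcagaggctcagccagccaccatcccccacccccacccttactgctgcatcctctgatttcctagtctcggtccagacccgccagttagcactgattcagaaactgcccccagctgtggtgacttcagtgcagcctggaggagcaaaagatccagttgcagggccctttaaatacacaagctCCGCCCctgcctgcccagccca
The GC box ends 16 bases before the start, and 32.7% of 32851 mouse promoters of this length hold 1 on either strand. No TATAAA (in 12.4% of promoters), no CCAAT (33.8%) and no TTCNNNGAA, the letters of a GAS element (7.02%), were found in this window on either strand.

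Vaultrc5 was higher in every invading sample than in any non-invading sample of the same time. At 72 h its log2 signal was 11.94, 12.36, 12.39 and 12.89 in the invading samples and 10.20, 10.27, 10.39 and 10.49 in the non-invading ones. On the linear scale these were signals of 3920 to 7580 against 1180 to 1440. The groups were separated by 1.44 log2 units, and the invading samples were the more scattered. The means were 12.39 ± 0.39 (SD, n = 4) and 10.34 ± 0.13 (SD, n = 4), a log2 ratio of 2.05 (SE 0.17) or 4.15-fold, with a 95% interval of 3.16 to 5.45.

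At 96 h Vaultrc5 stood at 11.61, 11.54, 11.87, 11.84 and 11.84 in the invading samples and at 9.87, 9.60, 10.57, 9.79 and 9.51 in the non-invading ones. The groups were again apart, by 0.96 log2 units, with non-invading replicate 3 nearest to the invading samples. The means were 11.74 ± 0.16 (SD, n = 5) and 9.87 ± 0.42 (SD, n = 5), a log2 ratio of 1.87 (SE 0.17) or 3.65-fold, with a 95% interval of 2.80 to 4.77. Without non-invading replicate 3 the log2 ratio was 2.05.

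Vaultrc5 was chosen for being among the highest genes of the invading fraction, so its rank at either time is a description. By the size of the log2 ratio it ranked 3 of 19938 genes at 72 h. The matrix metalloproteases Mmp13 (log2 ratio 2.17) and Mmp3 (2.09) lay just above it. The box H/ACA small nucleolar RNA Snora31 (1.72) and the prolactin family member Prl2c5 (1.6) lay just below. At 96 h it ranked 5, after Ccl8 (2.21), a chemokine, and Prl2c5 (2.20) and before Serpina3n (1.87), a serine protease inhibitor, and the metalloprotease Mmp10 (1.73).

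The level of Vaultrc5 was lower at 96 h than at 72 h in both fractions. In the invading fraction the log2 difference was -0.65 (SE 0.19, 95% interval -1.05 to -0.26), and the highest sample at 96 h lay 0.06 below the lowest at 72 h. In the non-invading fraction it was -0.47 (SE 0.19, 95% interval -0.87 to -0.07), and the groups overlapped through replicate 3. The log2 ratio between the fractions at 96 h minus that at 72 h was -0.18 (SE 0.27), with an interval of -0.75 to 0.38 that spans 0. These values rest on the samples the gene was chosen by and carry no test.

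The spread of Vaultrc5 between replicates was unequal. Its SD of 0.39 in the invading samples at 72 h and of 0.42 in the non-invading samples at 96 h was above that of 99.4% and 99.5% of the genes, whose median SD was 0.113 and 0.104. In the non-invading samples at 72 h it was above that of 62.0% and in the invading samples at 96 h above that of 79.0%.

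**Figure D1:**
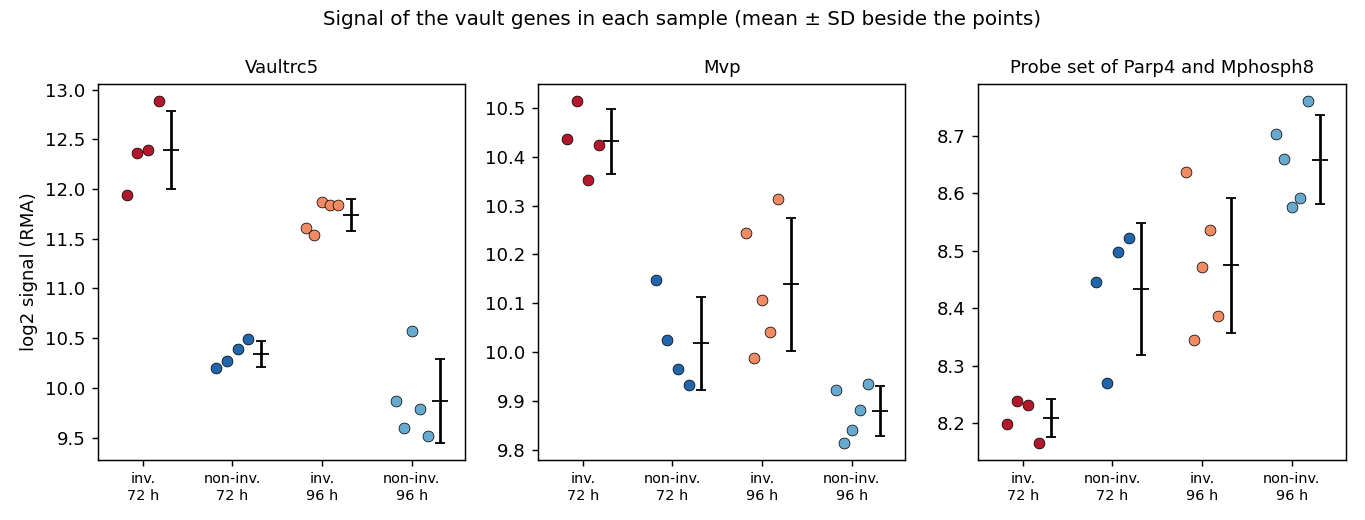
Log2 signal of Vaultrc5, Mvp and the probe set shared by Parp4 and Mphosph8 in each of the 18 samples (points), with the mean ± SD of each group beside them; inv. is the invading and non-inv. the non-invading fraction, and each panel has its own axis, which does not start at 0. Vaultrc5, which was chosen for being high in the invading fraction, and Mvp do not overlap between the fractions at either time. The shared probe set runs the other way, with overlap at 96 h. The share of all genes without overlap was not counted.

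Mvp, which encodes the protein of the vault shell, was also higher in the invading fraction at both times, by a much smaller ratio. At 72 h it measured 10.44, 10.52, 10.35 and 10.42 in the invading samples against 10.15, 10.03, 9.97 and 9.93 in the non-invading ones. The groups lay 0.21 apart. The means of 10.43 ± 0.07 (SD, n = 4) and 10.02 ± 0.09 (SD, n = 4) gave a log2 ratio of 0.41 (SE 0.07), or 1.33-fold (95% interval 1.19 to 1.49), with an adjusted p of 0.0045 in limma after Benjamini-Hochberg adjustment over all probe sets.

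At 96 h Mvp measured 10.24, 9.99, 10.11, 10.04 and 10.31 in the invading samples and 9.92, 9.81, 9.84, 9.88 and 9.93 in the non-invading ones. The lowest invading sample lay 0.05 above the highest non-invading one. How many of all genes were without overlap between the fractions was not counted at either time. The means of 10.14 ± 0.14 (SD, n = 5) and 9.88 ± 0.05 (SD, n = 5) differed by a log2 ratio of 0.26 (SE 0.068), or 1.2-fold (95% interval 1.08 to 1.33), with an adjusted p of 0.015 in limma. Differences past an adjusted p of 0.10 were common on these arrays: 26.5% of the 19938 genes passed at 72 h and 31.4% at 96 h. Ranked by log2 ratio, Mvp was number 565 at 72 h and 1716 at 96 h.

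Over time Mvp fell in the invading fraction, by 0.29 on the log2 scale (SE 0.067, ratio 0.816), with an adjusted p of 0.0037 in limma and with groups 0.04 apart. In the invading fraction 34.8% of the genes changed between the times, and in the non-invading fraction 27.6% did. In the non-invading fraction the log2 difference of Mvp was -0.14 (SE 0.067, 95% interval -0.28 to 0.00) and did not pass (adjusted p of 0.17 in limma). The log2 ratio between the fractions at 96 h minus that at 72 h was -0.15 (SE 0.095, 95% interval -0.35 to 0.05), with an adjusted p of 0.70 in limma. For this difference 3 genes, 0.015% of all, passed.

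In order of mean level, both Vaultrc5 and Mvp were highest in the invading samples at 72 h, followed by the invading samples at 96 h, the non-invading samples at 72 h and the non-invading samples at 96 h. For Vaultrc5 neighbouring groups did not overlap except for the non-invading samples of the 2 times. For Mvp the invading samples at 96 h (9.99 to 10.31) and the non-invading samples at 72 h (9.93 to 10.15) overlapped, and the non-invading samples of the 2 times met at 9.93.

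Parp4, the poly(ADP-ribose) polymerase of the vault, could not be read by itself, since its probe set also carries the symbol of Mphosph8, a gene for a reader of histone H3 methylation that lies beside it. At 72 h this shared probe set measured 8.20, 8.24, 8.23 and 8.17 in the invading and 8.45, 8.27, 8.50 and 8.52 in the non-invading samples. The groups lay 0.03 apart, with the invading samples lower. The log2 ratio was -0.23 (SE 0.071), with an adjusted p of 0.054 in limma.

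At 96 h the shared probe set measured 8.64, 8.34, 8.47, 8.54 and 8.39 in the invading and 8.70, 8.66, 8.58, 8.59 and 8.76 in the non-invading samples, and the groups overlapped. The log2 ratio was -0.18 (SE 0.066), with an adjusted p of 0.062 in limma. The call at 72 h was lost without invading replicate 1 or 4 or non-invading replicate 3 or 4 (adjusted p of 0.11 to 0.13) and with quantile normalization applied again (0.14). The call at 96 h was lost without invading replicate 2, 3 or 5 or non-invading replicate 1, 2 or 5 (0.10 to 0.14). The probe set rose with time, by a log2 difference of 0.27 in the invading fraction (adjusted p of 0.0068) and 0.22 in the non-invading fraction (adjusted p of 0.025). The second of these calls was lost without non-invading replicate 2 at 72 h (0.17, adjusted p of 0.10).

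Across the 18 samples Vaultrc5 and Mvp followed each other at a Pearson's r of 0.831 (Spearman's rho 0.814), a description in which the samples share the 4 groups. In the ranking of all genes by r with Vaultrc5, Mvp was number 432 of 19937. With the group means taken out, r between Vaultrc5 and Mvp was -0.124 (rho -0.216). The sample with the least Vaultrc5 had the most Mvp in the non-invading samples at 72 h (10.20 and 10.15) and the least Mvp in the invading samples at 96 h (11.54 and 9.99).

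**Figure D2:**
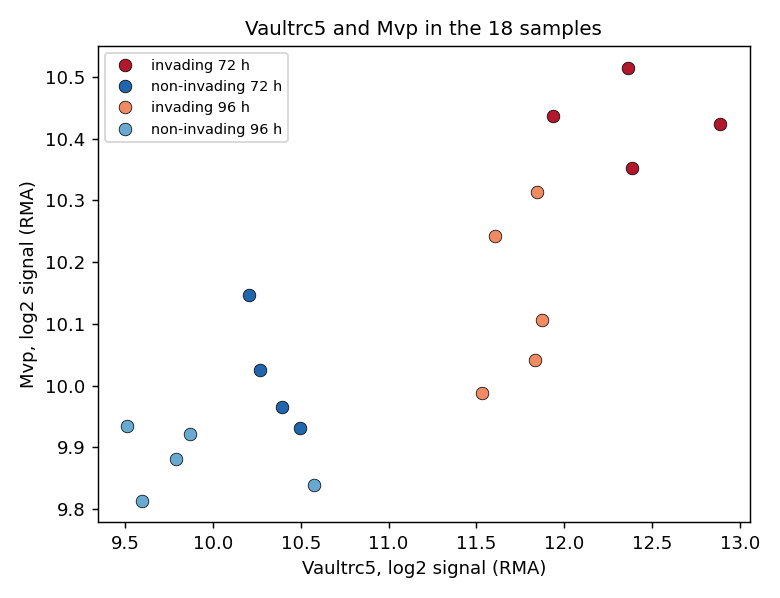
Mvp against Vaultrc5, both as log2 signal, in the 18 samples, 1 point per sample and 1 colour per group. The invading samples lie to the right, and in Mvp those at 96 h overlap with the non-invading samples at 72 h. After removal of the group means r was -0.124, a value that pools the groups and does not give the trend inside any 1 of them. In the non-invading samples at 72 h Mvp was lower the higher Vaultrc5 was.

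The genes most like Vaultrc5 over the 18 samples were Kif26b (r 0.947), a kinesin family member, Cyba (0.945), a subunit of NADPH oxidase, Dlgap2 (0.942), Mmp13 (0.942) and Tnfaip2 (0.941). An r above 0.9 was reached by 67 genes. With the group means removed, the leading genes were Olfr18 (0.83), Spef1 (0.794), Olfr1281 (0.788), Mgarp (0.751) and Osbp2 (0.749), of which Olfr18 and Olfr1281 are olfactory receptor genes. They are the highest of 19937 genes, of which 0 had an r above 0.9, and no test was run on them.

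The genes most like Mvp were Git1 (r 0.966), Zfp651 (0.963), Coro1b (0.961), which encodes an actin-binding coronin, Pik3r2 (0.958), a regulatory subunit of phosphoinositide 3-kinase, and Ubxn6 (0.958). An r above 0.9 with Mvp was reached by 219 genes. With the group means removed they were Fbxo10 (0.927), Vps16 (0.898), Ghdc (0.885), Icmt (0.884) and Vac14 (0.882). These too are the highest of 19937 genes, without a test. The leading genes of Vaultrc5 and of Mvp were different ones in both rankings.

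The genes that flank the members were read as well. Beside Vaultrc5, Zmat2 had a log2 ratio of 0.27 at 72 h (adjusted p of 0.21 in limma) and 0.35 at 96 h (adjusted p of 0.00022), and Gm6756 of -0.02 (0.86) and -0.17 (0.051). Beside Mvp, Cdipt had a log2 ratio of -0.14 (adjusted p of 0.16) and 0.05 (0.64), and Pagr1a of 0.23 (0.29) and 0.31 (0.014). The largest of these log2 ratios, 0.35 for Zmat2, lay beside 1.87 for Vaultrc5 at the same time.

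Vaultrc5 belongs to the RNAs made by RNA polymerase III, and the other RNAs of this class on the array had log2 ratios above 0 at both times. Of 7 measured (Bc1, Rn7s1, Rn7s2, Rn7s6 and Rnu6atac had no probe set of their own), 4 rose in the invading fraction at 72 h and 5 at 96 h, and 0 fell. This is 57.1% and 71.4%, beside 26.5% and 31.4% of all genes. Their median log2 ratio was 0.30 and 0.35, beside 0.038 and 0.024 over all genes. Their log2 ratios reached 1.04 at 72 h and 1.41 at 96 h, beside 2.05 and 1.87 for Vaultrc5.

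The highest was Rny1, the RNA component of the Ro particle also known as Y1. It measured 9.75, 10.67, 11.02 and 11.11 in the invading and 9.70, 9.57, 9.45 and 9.66 in the non-invading samples at 72 h, so that invading replicate 1 lay just above the non-invading samples. The log2 ratio was 1.04 (SE 0.26), or 2.06-fold, with an adjusted p of 0.022 in limma. At 96 h Rny1 measured 9.78, 9.77, 9.67, 9.60 and 9.05 against 8.22, 8.40, 8.0, 8.11 and 8.08, a log2 ratio of 1.41 (SE 0.14), or 2.66-fold (adjusted p of 6.6e-05).

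The 5S ribosomal RNA gene n-R5s136 measured 11.76, 12.18, 12.24 and 12.36 in the invading and 11.74, 11.70, 11.65 and 11.55 in the non-invading samples at 72 h, and at 96 h 11.22, 11.10, 11.29, 11.19 and 11.20 against 10.22, 10.27, 10.41, 10.26 and 10.07. The log2 ratio was 0.47 (adjusted p of 0.025 in limma) and 0.95 (1.5e-05). The difference between the ratios of the times passed the test for 0 of the 7. Copies of the 5S gene are nearly identical, so the probe set may take signal from several of them.

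The RNA of RNase MRP, Rmrp, had a log2 ratio of 0.44 at 72 h (adjusted p of 0.0023 in limma) and 0.55 at 96 h (0.00063). The RNA of RNase P, Rpph1, had 0.30 (0.0069) and 0.35 (0.0017). The Y RNA Rny3 had 0.08 (0.40) and 0.18 (0.0099). The transcription regulator 7SK, Rn7sk, had 0.07 (0.39) and 0.09 (0.14), and U6, Rnu6, had 0.16 (0.28) and 0.07 (0.65) at mean signals of 3.50 to 3.74, near the lowest value of the arrays at 2.941.

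**Figure D3:**
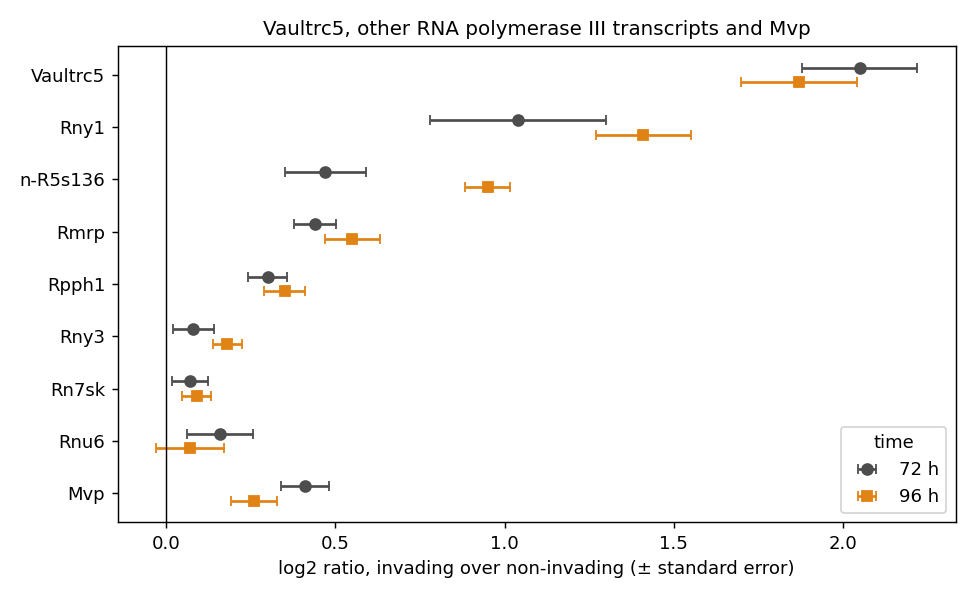
Log2 ratio of the invading over the non-invading fraction (± SE) at 72 h (circles) and 96 h (squares) for Vaultrc5, the 7 other RNA polymerase III transcripts and Mvp. Vaultrc5 lies at 2.05 and 1.87, Rny1 at 1.04 and 1.41, and the remaining transcripts between 0.07 and 0.95.

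Over time the RNA polymerase III transcripts fell in both fractions, where Vaultrc5 differed by -0.65 and -0.47. In each fraction 5 of 7 fell from 72 to 96 h and 0 rose. This is 71.4% in each, beside 34.8% of all genes past the test in the invading and 27.6% in the non-invading fraction. The median log2 differences were -0.24 in the invading and -0.36 in the non-invading fraction, beside -0.031 and -0.017 over all genes. Rny1 fell by 1.06 and 1.44 on the log2 scale (adjusted p of 0.0012 and 0.00017 in limma), and n-R5s136 fell by 0.93 and 1.41 (2.8e-06 and 2.8e-07).

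Small nucleolar and Cajal body RNAs, which guide the modification of other RNAs and are mostly cut from introns of RNA polymerase II transcripts, were also more often higher than lower. Of 54 measured, 22 were higher in the invading fraction at 72 h and 4 lower (48.1%), and at 96 h 26 were higher and 7 lower (61.1%), with median log2 ratios of 0.29 and 0.22. Over all genes 26.5% and 31.4% passed, with 13.0% and 16.7% higher. Snora31 (log2 ratio 1.72 and 1.45), Snora44 (1.49 and 1.21) and Snora20 (1.58 and 0.99) passed the test at both times. Among those that ran the other way, Snord95 (-1.16 and -0.91), Snord37 (-0.9 and -0.7) and Snord42b (-0.67 and -0.43) passed as lower at both times. Snord42a had -1.37 (adjusted p of 0.0058 in limma) and -0.65 (0.11). At 96 h it passed without invading replicate 1 (-0.76, adjusted p of 0.075) or 2 (-0.87, 0.021), and at 72 h 7 of the list were lower without invading replicate 3. From 72 to 96 h 32 of the 54 fell in the invading and 26 in the non-invading fraction, and 0 rose, that is 59.3% and 48.1% past the test beside 34.8% and 27.6% of all genes.

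The short RNAs also moved with single samples. In the invading samples at 72 h, replicate 1 was lowest in Vaultrc5 (11.94), in the mean of the other RNA polymerase III transcripts (11.50, beside 11.73 to 11.85) and in the mean of the small nucleolar RNAs (8.99, beside 9.62 to 9.80). Without it the log2 ratio at 72 h was 2.21 for Vaultrc5 and 1.34 for Rny1, and 33 small nucleolar RNAs were higher. In the non-invading samples at 96 h, replicate 3 was high in Vaultrc5 (10.57) while its mean over the RNA polymerase III transcripts (10.74) lay within the 10.73 to 10.82 of its group. The part of a shift common to short RNAs in the values of Vaultrc5 was not tested. Of 9 epithelial markers, Epcam and Cdh1 were higher in the invading fraction at 96 h. Of 7 immune markers, Cd68 and Cd79a were higher at 96 h, and Cd79a was at 72 h. Of 6 endothelial markers 0 passed at either time. The group means were 5.35 to 5.67 for Epcam, 6.07 to 6.28 for Cdh1, 4.69 to 5.19 for Cd79a and 6.73 to 7.51 for Cd68. The median over all genes was 7.14. The mean of the immune markers was 5.67 to 5.84 in the invading and 5.53 to 5.67 in the non-invading samples at 72 h, and 5.52 to 5.76 against 5.35 to 5.54 at 96 h. That of the epithelial markers was 5.76 to 5.87 against 5.61 to 5.75 and 5.64 to 5.73 against 5.58 to 5.71. Of the 12 fibroblast markers, 1 was higher (Pdgfrb) and 5 were lower in the invading fraction at 72 h, and 0 were higher and 5 lower at 96 h. The lower ones were Col1a1, Col1a2, Col3a1, Col5a1 and S100a4 at both times, with log2 ratios of -0.35 to -0.19, and the mean of the list was 11.51 to 11.69 in the invading and 11.69 to 11.76 in the non-invading samples at 72 h, and 11.61 to 11.69 against 11.66 to 11.79 at 96 h. The shares past the test at 72 and 96 h were 50.0% and 41.7% for the fibroblast markers. They were 0% and 22.2% for the epithelial, 0% and 0% for the endothelial and 14.3% and 28.6% for the immune markers. Of all genes 26.5% and 31.4% passed. The part of these markers in the result was not tested.

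The subunits of RNA polymerase III showed no common direction. Of 17 measured, 2 rose and 2 fell at 72 h, and 4 rose and 2 fell at 96 h, with median log2 ratios of 0.06 and 0.04. These were 23.5% and 35.3% of the list, close to the shares over all genes. Polr3g and Polr3gl are alternative forms of the same subunit. Polr3g had a log2 ratio of -0.61 (adjusted p of 0.0026 in limma) at 72 h and -0.06 (0.75) at 96 h, while Polr3gl had 0.24 (0.032) and 0.23 (0.016). Polr3f fell at both times (-0.49, adjusted p of 0.030, and -0.30, 0.0012), and Polr2k, shared by the nuclear polymerases, had 0.32 (0.023) and 0.11 (0.48). With quantile normalization applied again 5 rose at 72 h and 7 at 96 h, with 2 falling at each. At 96 h 2 rose without invading replicate 2, 3, 4 or 5 or non-invading replicate 3, and 1 rose without non-invading replicate 5.

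The factors that place RNA polymerase III on its genes, listed together with its repressor Maf1, split. Of 16 measured (all but Gtf3c2, Pou2f1 and Znf143), 6 rose and 4 fell at 72 h, and 4 rose and 6 fell at 96 h, with median log2 ratios of 0.10 and 0.01, so that 62.5% passed at each time, beside 26.5% and 31.4% of all genes. Snapc3, of the complex for genes with an upstream promoter, fell by 0.89 and 0.71 on the log2 scale (adjusted p of 0.0013 and 1.5e-05 in limma). Bdp1, of TFIIIB, fell by 0.52 and 0.64 (0.011 and 0.0011), and the TATA-binding protein Tbp fell by 0.57 and 0.28 (0.0018 and 0.0013). Gtf3c5, of TFIIIC, rose by 0.54 and 0.57 (0.024 and 0.00039). Maf1, the repressor of the polymerase, was picked out after its values were seen. It rose by 0.33 and 0.37 (0.018 and 0.00091) and is counted among the genes that rose. The number that rose at 72 h was 3 without invading replicate 2 or non-invading replicate 3 or 4, and the number that fell at 96 h was 3 without invading replicate 2 or non-invading replicate 2 or 5.

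A list of 11 proteins covered the binding and processing of vault RNA, with the Y RNA binder Ro60 among them. Of the 11, 1 rose and 4 fell at 72 h, and 1 rose and 5 fell at 96 h, with median log2 ratios of -0.12 and -0.13. These were 45.5% and 54.5% of the list, beside 26.5% and 31.4% of all genes. The splicing factor Srsf2, which binds vault RNA, fell by 0.73 and 0.44 on the log2 scale (adjusted p of 0.00082 and 0.0015 in limma). Dicer1, the nuclease that makes microRNAs and can cut vault RNA into small RNAs, fell by 0.72 and 0.49 (0.0012 and 0.0046). Dusp11, a phosphatase that trims the 5′ ends of RNA polymerase III transcripts, fell by 0.32 and 0.43 (0.013 and 0.00039).

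Eif2ak2, the RNA-sensing kinase PKR, fell by 0.46 and 0.25 (adjusted p of 0.046 and 0.020 in limma), and the call at 72 h was lost without invading replicate 2 or 4 or non-invading replicate 3 or 4 (0.11 to 0.12). The autophagy receptor Sqstm1, or p62, to which vault RNA can bind, rose by 0.26 and 0.28 (0.013 and 0.0018). The La protein Ssb had log2 ratios of -0.08 (0.51) and 0.06 (0.44), and the RNA methyltransferase Nsun2, which modifies vault RNA, of 0.01 (0.97) and 0.07 (0.40). Ro60, which binds Y RNAs, had -0.15 (0.57) and -0.28 (0.024). From 72 to 96 h 5 of the 11 rose in the invading and 4 in the non-invading fraction (45.5% and 36.4%, beside 34.8% and 27.6% of all genes), and 0 fell. Ssb was among them, with log2 differences of 0.43 (3.1e-05) and 0.30 (0.0015), and so was Sqstm1, with 0.21 (0.0029) and 0.18 (0.0088).

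The relatives of the other vault proteins were read because Parp4 and Tep1 were not. Of 17 genes of the PARP family and its reversal, 1 rose and 3 fell at each time, with median log2 ratios of 0.03 and -0.07. Tankyrase, Tnks, fell by 0.34 and 0.43 (adjusted p of 0.025 and 0.0068 in limma), Parp2 fell by 0.35 and 0.25 (0.0046 and 0.048) and Parp6 fell by 0.21 and 0.40 (0.066 and 0.0012). Adprhl2, a hydrolase that removes ADP-ribose, rose by 0.38 and 0.19 (0.0066 and 0.036). The share past the test was 23.5% at each time, beside 26.5% and 31.4% of all genes. The call of Parp6 at 72 h was lost without any 1 of the samples of that time other than non-invading replicate 2 (adjusted p of 0.10 to 0.16). The call of Parp2 at 96 h was lost without invading replicate 2 or 3 or non-invading replicate 5 (0.10 to 0.11). With 1 sample left out, 1 or 2 of the family rose at each time. With quantile normalization applied again 3 rose and 2 fell at 72 h and 5 rose and 3 fell at 96 h, so the balance of the family turned with the scaling. With centred arrays 3 rose and 3 fell at 96 h.

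Of 17 genes of the telomerase complex and the telomere, with which TEP1 was first found, 7 rose and 3 fell at 72 h, and 7 rose and 1 fell at 96 h (58.8% and 47.1%, beside 26.5% and 31.4% of all genes), with median log2 ratios of 0.10 and 0.12. The telomerase RNA Terc rose by 0.76 and 0.75 on the log2 scale (adjusted p of 0.0021 and 0.0034 in limma), and Gar1 and Nhp2, proteins of box H/ACA particles, rose by 0.44 and 0.68 (0.015 and 0.00027) and by 0.40 and 0.61 (0.064 and 0.0043). Terf2ip, of the telomere cap, fell by 0.67 and 0.50 (0.0013 and 0.00076). Terc fell with time, by 1.10 and 1.08 on the log2 scale in the invading and non-invading fraction (2.6e-05 and 7e-05). The call of Nhp2 at 72 h was lost without invading replicate 1, 2 or 4 or non-invading replicate 3 or 4 (adjusted p of 0.12 to 0.15), and 4 of the list rose at 72 h without non-invading replicate 3 or 4.

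Of 4 measured genes whose proteins bind MVP, 1 rose and 0 fell at 72 h, and 1 rose and 1 fell at 96 h, with median log2 ratios of -0.03 and 0.03. With so few genes the shares of 25.0% and 50.0% stand beside 26.5% and 31.4% of all genes. At 72 h 1 fell without invading replicate 3. The kinase Src rose by 0.33 and 0.27 on the log2 scale (adjusted p of 0.038 and 0.0098 in limma). The oestrogen receptor Esr1 had log2 ratios of -0.16 (0.35) and -0.47 (0.0018), at mean signals of 6.51 to 6.99.

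**Figure D4:**
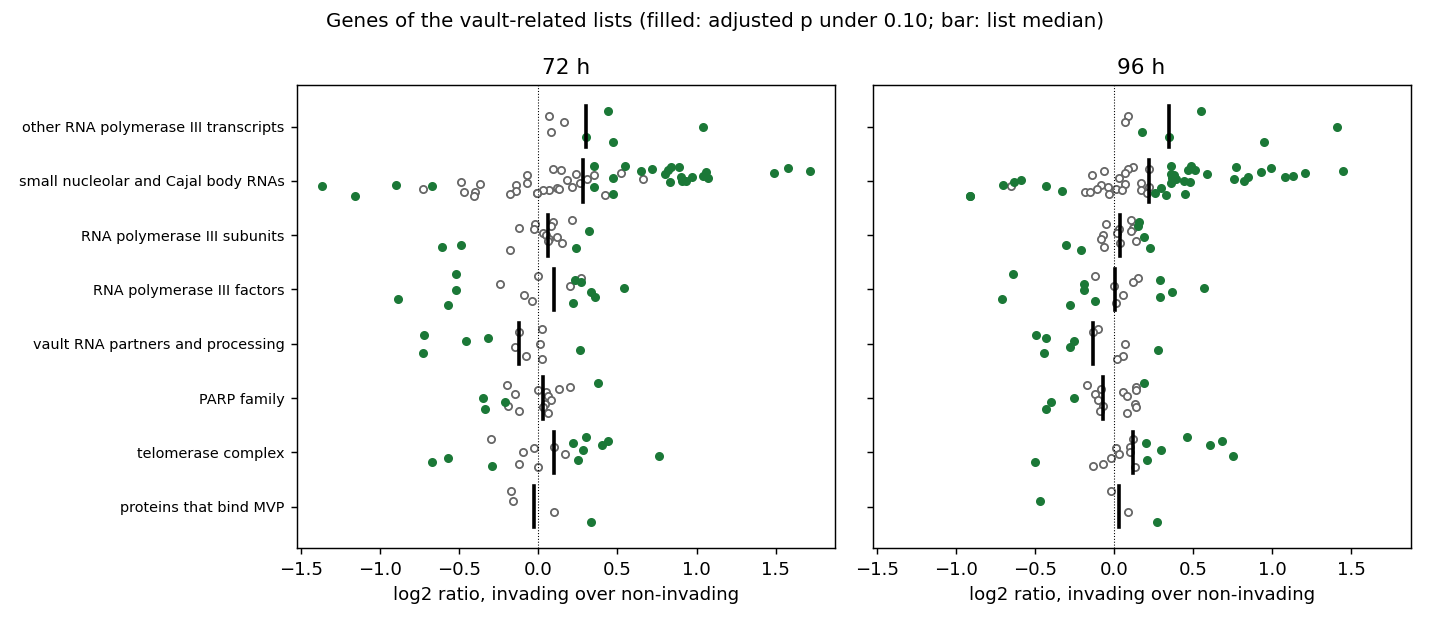
Log2 ratio of the invading over the non-invading fraction at 72 h (left) and 96 h (right) for each gene of 8 lists, 1 point per gene, filled where the adjusted p in limma was under 0.10, with a bar at the median of each list. The other RNA polymerase III transcripts lie to the right of 0 at both times, and the protein lists spread to both sides.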

How the data were processed

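RNA of 18 samples (4 invading and 4 non-invading at 72 h, 5 and 5 at 96 h) was amplified. The resulting cDNA was hybridised to Affymetrix Mouse Gene 1.0 ST arrays. The deposited values are log2 signals that the authors had background corrected, normalised by sketch-quantile and summarised by RMA in Affymetrix Expression Console (1.2 in the submitters' notes), and they were not transformed further. Of 35556 probe sets, 21789 carry 1 gene symbol, 1621 several and 12146 none in the platform annotation. Depth does not apply to arrays, and their number limits the precision.

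Groups were taken from the sample labels. Fractions were compared within each time by limma 3.58.1 in R 4.3.3 without covariates, and times in 1 fit over all samples, with Benjamini-Hochberg adjustment over all probe sets and a threshold of 0.10. The fits were tested on simulated data with independent errors for each probe set. Such data hold no shift shared by the probe sets of a sample, so they do not bear on the calls for lists of short RNAs. Genes named are the members, up to 4 genes of each list with the largest ratios past the threshold, the 5 genes most correlated with Vaultrc5 and with Mvp, the neighbours of Vaultrc5 in rank, and others for their role or direction. Members and lists were chosen with earlier results of these data known. Planned tests of Parp4 and Tep1 by themselves were not run, for want of a probe set. The alternatives were scaling, a signal limit of 100, the variance model, 1 fit over all samples, probe sets with 1 symbol, a threshold of 0.05, the replicate block and leaving out each sample.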

Additional observations from a re-analysis of the deposited data

Results flagged for a closer look

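Among 40 groups of samples, for the members and the other RNA polymerase III transcripts, 2 held a sample that stood apart from the rest of its group, where chance alone gives about 1 in 20. Rny1 measured 9.05 in invading replicate 5 at 96 h, beside 9.60 to 9.78 in the other samples of the group. Rny3 measured 14.07 in invading replicate 1 at 72 h, beside 14.21 in each of the others, in the same sample that was lowest in Vaultrc5.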

How the results depend on the processing

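The log2 ratio of Vaultrc5 ran from 1.89 to 2.21 at 72 h and from 1.78 to 2.05 at 96 h, over 16 and 18 alternatives that enter the fit of that time. That of Mvp ran from 0.39 to 0.46 (adjusted p of 0.00045 to 0.017 in limma) and from 0.22 to 0.30 (0.0051 to 0.039), past the threshold in all 16 and all 18. The fall of Mvp in the invading fraction ran from -0.35 to -0.26 (0.00041 to 0.017) over 24 alternatives. In the non-invading fraction the difference of Mvp passed with quantile normalization applied again (-0.18, adjusted p of 0.038) and in none of the other 23. No value among these results changed sign.

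Quantile normalization applied again gave 10189 genes past the threshold at 96 h in place of 6255 and moved the median of all genes to 0.111. The share of calls that were higher went from 49.0% to 68.4% at 72 h and from 53.1% to 75.5% at 96 h, and with centred arrays to 60.3% and 55.5%. For the change with time it went from 52.2% to 45.3% and 46.7% in the invading and from 55.9% to 43.0% and 61.1% in the non-invading fraction. The 3 genes past the threshold for the difference between times became 15 with a signal limit of 100, 16 with an intensity trend and robust estimation, and 0 with centred arrays, with probe sets of 1 symbol, at a threshold of 0.05 and with the replicate block, and 0 to 16 when each sample was left out (1623 at an unadjusted p under 0.05). The cause was not tested.

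Invading and non-invading samples of the same number deviated together at -0.07 to 0.09 at 72 h and 0.05 to 0.17 at 96 h. The best match of a sample was its own number for 1 of 4 pairs at 72 h and 4 of 5 at 96 h. The labels do not say whether equal numbers mark pairs, and the main fits did not use them as pairs. The matches at 96 h do not exclude pairing, so a fit with the number as a block is given as well. With the replicate block Mvp stayed past the threshold at both times. The calls of the shared probe set (adjusted p of 0.12) and Parp6 (0.12) at 72 h and of Parp2 (0.10) at 96 h were lost. Snord42a passed at 96 h (0.062). No other call changed among the single genes recomputed with the block. Counts of lists at 72 h also moved, and fewer of all genes passed at that time. The RNA polymerase III factors that rose were 4 in place of 6. Of the telomerase list 5 rose in place of 7, and 4 fell in place of 3. No block could be fitted for the change with time.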
